A study of Homo sapiens with 24 samples.

Results

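The regions described here are the peaks in 3 windows of human chromosome 19 that are known for clusters of KRAB zinc finger genes: 19.8 to 24.6 Mb, 52.4 to 54.1 Mb and 57.0 to 59.1 Mb of hg19, referred to as windows 1, 2 and 3. A peak was a member if it lay wholly inside a window, on either strand, in any of 7 peak lists made by enhanced crosslinking and immunoprecipitation (eCLIP), a method that sequences RNA fragments crosslinked to a protein. Membership used position only and no measured value, but the windows themselves were chosen with earlier results of these data known. It gave 1540 peaks of 269336 in the series, and the other 18331 peaks of chromosome 19 served as the comparison.

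The 7 lists came from 293T cells, a human embryonic kidney line, crosslinked with ultraviolet light. All 7 came from this 1 line without a genetic change named in the labels. The antibodies were against RBFOX2 (2 libraries, 40 U of RNase I), against SLBP (2 libraries at 40 U and 2 at 5 U) and a control IgG (1 library, 40 U). Each library had an input of its own, and the log2 fold deposited for each peak compares the immunoprecipitation with that input. The labels do not say whether libraries of 1 antibody came from separate cultures, so p-values measure only how far these libraries spread, and that spread may be technical.

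KRAB zinc finger genes code for DNA-binding repressors that recruit the corepressor TRIM28, many of them to silence transposable elements. They arose by repeated duplication and stand side by side as related copies in clusters, most densely on chromosome 19. RBFOX2 binds GCAUG-containing RNA, largely in introns, and regulates alternative splicing. SLBP binds the stem-loop at the end of replication-dependent histone mRNAs, which are encoded mainly in clusters on other chromosomes. In a RefSeq gene list of another build, GRCh38.p14, used for names and order only, 250 of 1451 protein-coding genes of chromosome 19 (17.2%) had a ZNF symbol and 212 stood in 24 runs of at least 3 such neighbours. The longest run had 27 genes, from ZNF737 to ZNF681, and the next had 24, from ZNF627 to ZNF791. Near the end of the long arm the order was ZNF584, ZNF324B, ZNF132, ZNF324, ZNF446, SLC27A5, ZBTB45, TRIM28, CHMP2A, UBE2M and MZF1, so the genes there are not zinc finger genes alone. Peaks were not assigned to genes, since no hg19 annotation was used. The window bounds were therefore not checked against genes, and the comparison part of the chromosome also holds zinc finger genes.

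RBFOX2 peaks were numerous in the zinc finger windows but seldom high over input. RBFOX2 replicate 1 had 626 peaks there and replicate 2 had 562. The SLBP lists held 69, 66, 42 and 42, and the IgG list held 133. Whole lists differed in length, from 10122 peaks (SLBP replicate 4) to 97594 (RBFOX2 replicate 2), so the counts were also read as shares of each list's chromosome 19 peaks. The share was 11.5% and 7.93% for RBFOX2, 3.71%, 4.70%, 3.18% and 5.71% for SLBP and 6.55% for IgG. Both RBFOX2 shares were above every other one. This ranking counts all peaks, those below input included, and did not hold without them. Among the other peaks, RBFOX2 replicate 1 still had the highest share, but RBFOX2 replicate 2 fell below IgG and SLBP replicate 4. Peaks below input were 43.9% and 50% of the RBFOX2 window peaks. They were 4.35% to 33.3% of the SLBP ones and 8.27% of the IgG ones. The RBFOX2 mean was 9.72% ± 2.54 (SD, n = 2) and the SLBP mean 4.33% ± 1.11 (SD, n = 4). The difference of 5.40 percentage points had an exact two-sided permutation p of 0.133, which is the smallest that 2 libraries against 4 can give.

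Every list was sparser in the windows than on the rest of the chromosome. The windows cover 8.6 Mb, or 14.6% of the span of chromosome 19 between its first and last peak, with the centromere gap counted in the rest. RBFOX2 had 72.8 and 65.3 peaks per Mb inside and 95.3 and 129 outside. SLBP had 8.02, 7.67, 4.88 and 4.88 inside and 35.5, 26.5, 25.3 and 13.8 outside. IgG had 15.5 inside and 37.6 outside. The density outside was 1.31 and 1.98 times that inside for RBFOX2, 2.82 to 5.18 times for SLBP and 2.43 times for IgG. With all peaks counted, those below input included, the deficit was thus smallest in the RBFOX2 lists. Without the peaks below input it stayed smallest in RBFOX2 replicate 1. In RBFOX2 replicate 2 it was then larger than in IgG and SLBP replicate 4.

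The RBFOX2 folds were lower in the windows than outside in both replicates. The median log2 fold over input in replicate 1 was 0.41 inside and 0.87 outside, and in replicate 2 it was -0.02 inside and 1.14 outside. The median window peak of replicate 2 was thus no higher than its input. SLBP medians were 1.53, 1.33, 0.66 and 1.18 inside and 1.63, 1.46, 0.66 and 1.17 outside, and IgG had 1.31 inside and 1.14 outside. Inside minus outside was -0.46 and -1.16 for RBFOX2, between -0.12 and 0.01 for SLBP, and 0.17 for IgG. The mean RBFOX2 difference was -0.81 ± 0.49 (SD, n = 2) against -0.05 ± 0.07 (SD, n = 4) for SLBP, and the groups did not overlap (exact permutation p = 0.133, the smallest possible). The difference between the groups, -0.76, was -0.41 without RBFOX2 replicate 2 and -1.11 without RBFOX2 replicate 1. It was -0.43 among peaks that overlapped an IgG peak and -0.57 with touching peaks merged, each with an exact permutation p of 0.267. Over all 7 libraries the mean was -0.24 ± 0.45 (SD, n = 7), with an exact sign-flip permutation p of 0.25 and 0.312 after Benjamini-Hochberg adjustment over 5 measures. No common shift across antibodies was therefore called.

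**Figure D1:**
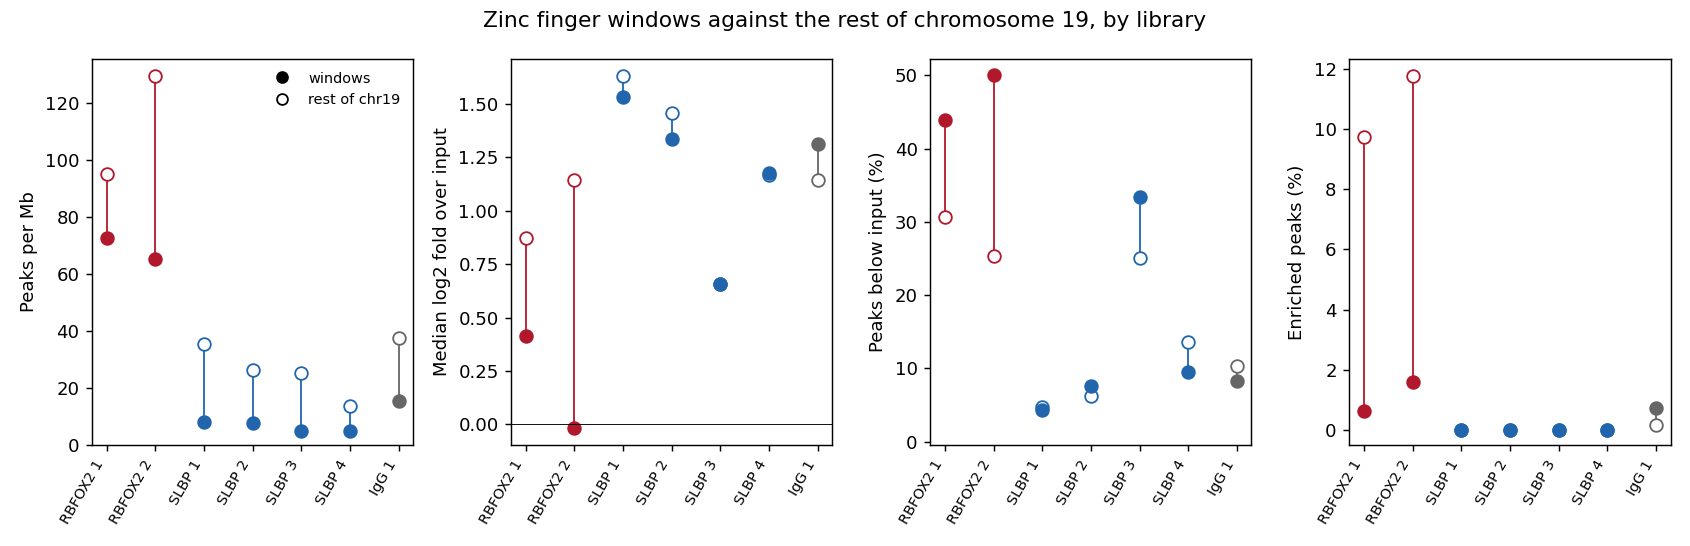
For each of the 7 libraries, the plots give peaks per Mb, median log2 fold over input, percent of peaks below input and percent of enriched peaks; filled points are the zinc finger windows and open points the rest of chromosome 19. Both RBFOX2 libraries have lower folds, more peaks below input and fewer enriched peaks in the windows, with enriched shares of 0.639% and 1.60% against 9.74% and 11.7%.

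More of the RBFOX2 window peaks lay under their own input. In replicate 1, 43.9% of window peaks had a log2 fold below 0 against 30.6% outside, and in replicate 2 it was 281 of 562 peaks (50%) inside and 25.4% outside. SLBP had 4.35%, 7.58%, 33.3% and 9.52% inside and 4.70%, 6.27%, 25.1% and 13.5% outside. SLBP replicate 3 was the highest of its group in both places. IgG had 8.27% inside and 10.3% outside. The excess inside was 18.96 ± 7.99 percentage points for RBFOX2 (SD, n = 2) and 1.30 ± 5.15 for SLBP (SD, n = 4), a difference of 17.7 (exact permutation p = 0.133, the smallest possible).

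Enriched RBFOX2 peaks were few in the windows. A peak was called enriched when the deposited −log10 p was at least 5 and the log2 fold at least 3, an 8-fold excess over input. In RBFOX2 replicate 1, 4 of 626 window peaks were enriched (0.639%, exact 95% binomial interval 0.174 to 1.63), against 9.74% on the rest of chromosome 19 and 7.95% of the whole list. In replicate 2, 9 of 562 were enriched (1.60%, interval 0.735 to 3.02), against 11.7% and 7.66%. The differences from the rest of the chromosome were -9.10 and -10.1 percentage points. No SLBP peak was enriched in the windows, and the background on the rest of chromosome 19 was 0% in all 4 lists, so the zinc finger windows do not stand apart there. Taken as at most 3 counts of the total, a count of 0 allows up to 4.35%, 4.55%, 7.14% and 7.14% of the window peaks of SLBP replicates 1 to 4, and the exact 95% intervals reach to 5.21%, 5.44%, 8.41% and 8.41%. The whole SLBP lists had 1.23%, 1.27%, 1.7% and 2.33%. IgG had 1 enriched peak of 133 (0.752%, interval 0.0190 to 4.12), against 0.158% on the rest of the chromosome and 0.18% of the list. These intervals cover counting error only, and neighbouring peaks are not independent. With 0 in all 4 SLBP lists both inside and outside, this measure cannot compare the antibodies on this chromosome. The exact sign-flip test over the 7 libraries gave a mean of -2.66 points and p = 0.5, with 4 libraries at a difference of 0. The mean was -1.59 without RBFOX2 replicate 1 and -1.42 without RBFOX2 replicate 2.

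In RBFOX2 each of the limits alone gave the same order. A log2 fold of at least 3 was met by 1.60% and 2.31% of RBFOX2 window peaks and by 13.3% and 15.9% outside. The −log10 p limit was met by 8 and 13 window peaks, or 1.28% and 2.31%, against 13.7% and 17.2% outside. The other lists were mixed, with the opposite order in some cases. The −log10 p limit was met by 3 of 69 SLBP replicate 1 window peaks (4.35%) and by 0.335% outside, and the fold limit by 14.3% and 10.2% in SLBP replicate 4 and by 5.26% and 4.17% in IgG. The other 3 SLBP lists had 0% to 1.52% past the fold limit inside, against 7.49%, 6.20% and 0.235% outside. Past the −log10 p limit, SLBP replicates 2 and 3 had 0% inside and 0.597% and 0.157% outside. IgG had 0.752% inside and 1.58% outside, and SLBP replicate 4 had 0% in both places. The highest RBFOX2 log2 folds were 4.06 and 4.29 in the windows and 7.74 and 7.85 outside. For IgG the order was turned, with 4.94 inside and 4.31 outside.

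**Figure D2:**
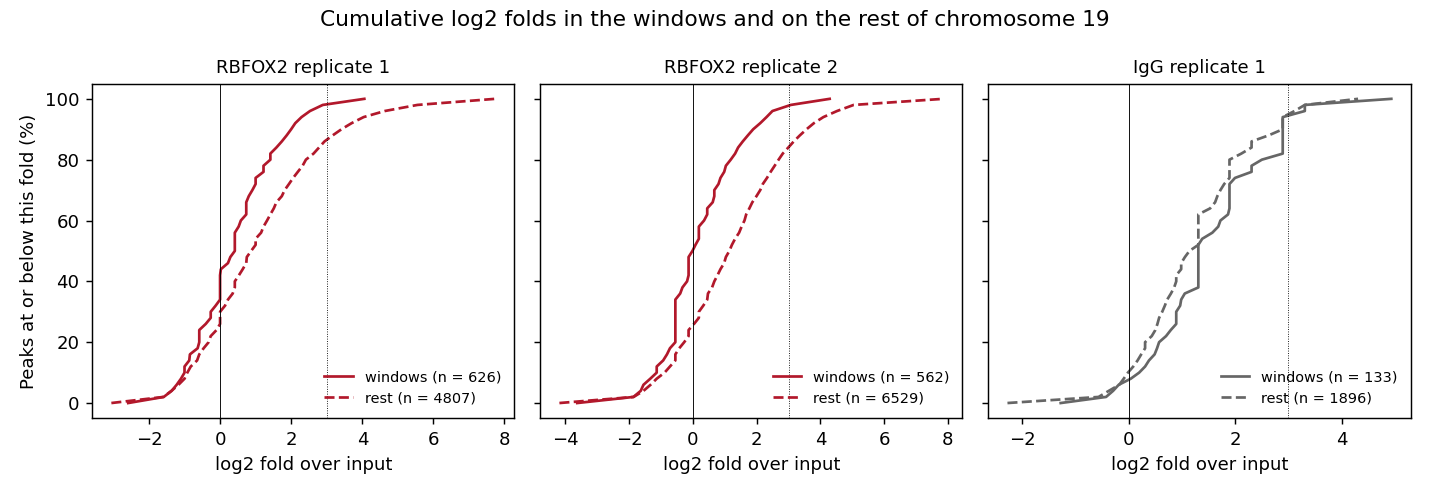
Cumulative percent of peaks at or below each log2 fold over input, for RBFOX2 replicates 1 and 2 and IgG; solid lines are the zinc finger windows, dashed lines the rest of chromosome 19, and the thin dotted vertical line marks a log2 fold of 3. The solid RBFOX2 lines lie to the left of the dashed ones over most of the range and end at 4.06 and 4.29, where the dashed ones end at 7.74 and 7.85.

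The RBFOX2 folds in the windows also fell more often on a few repeated values; folds formed from small whole read numbers repeat in this way. The share of folds that stood at whole-number ratios, up to 10, of the list's commonest value (within 0.0001 in log2) was 69.2% and 70.8% for RBFOX2 inside, against 43.9% and 34.5% outside. For SLBP it was 72.5%, 72.7%, 52.4% and 73.8% inside and 86.2%, 74.6%, 71.7% and 73.6% outside, and for IgG 84.2% and 76.3%. Such repeated values were more common where the RBFOX2 folds were low, and the part of low read numbers in the result was not tested.

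Only 1 RBFOX2 region of the windows was enriched in both replicates. It lay in window 3 at chr19:58991174-58991268 on the minus strand and was 95 nt long. Its log2 fold was 3.58 in replicate 1 (−log10 p 9.74) and 4.22 in replicate 2 (18.7), and no SLBP or IgG peak overlapped it on that strand. The rest of chromosome 19 had 211 such regions in 110 loci, where regions within 1 kb of each other were joined, and the series had 2618 in 1585. The count of 1 in the windows became 3 with a −log10 p limit of 3, 0 with windows shrunk by 200 kb on both sides and 4 with windows widened as much. In replicate 2, 6 of the 9 enriched window peaks belonged to this place, between 58990991 and 58991644. The peak at 58991067-58991147 had a log2 fold of 3.96 in replicate 2 and 2.03 in replicate 1. The peak at 58991553-58991597 had 3.56 and 1.94, and that at 58991351-58991462 had 3.16 and 1.84. The remaining pieces, at 58990991-58991041 (3.81) and 58991598-58991644 (3.06), had no replicate 1 peak. These 6 peaks are neighbours on 1 strand and count as 1 place. Replicate 1 was above input at each piece where it had a peak but past the limits only at the 95 nt region.

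The other enriched RBFOX2 peaks passed in 1 replicate. In window 1, the peak at 21560487-21560570 on the plus strand had log2 folds of 3.52 and 3.93 in replicates 1 and 2, and the replicate 2 value missed the p limit with a −log10 p of 4.57. The peak at 21292491-21292596, also plus, had 3.25 and 4.29, and here replicate 1 missed it at 4.84. Both replicates were thus above 8-fold at these positions. In window 2, 54024715-54024779 on the plus strand had 4.06 (−log10 p 14.6) and 2.62 (1.32), and 53840224-53840288 on the plus strand had 1.87 and 4.05. In window 3, 59061427-59061474 on the plus strand had 2.53 and 3.64. The replicates differed most at 58719642-58719719 on the plus strand, with 3.29 in replicate 1 and -0.33 in replicate 2.

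The only enriched IgG peak of the windows lay in window 1 at 22877627-22877709 on the minus strand, was 83 nt long and had a log2 fold of 4.94. This place had peaks in all 7 lists, which shared only 22877663-22877666. There RBFOX2 had 2.70 (−log10 p 7.37) and 2.23 (3.49), SLBP replicates 1 to 4 had 0.90, 1.63, -0.60 and -0.16, and IgG was the highest. Under the same IgG peak, RBFOX2 replicate 1 also had a peak at 22877672-22877711 (2.49, −log10 p 5.20). Replicate 2 also had one at 22877673-22877710 (3.07, −log10 p 4.34). In all, 8 places of the windows had a peak in every list, against 104 on the rest of the chromosome. The 7 lists held 1540 peaks in the windows and 18331 on the rest, so these places were about as frequent among window peaks as outside. The other 7 lay in window 3 on the plus strand. At 59055895-59055925 RBFOX2 had -0.39 and -0.79, SLBP 2.07, 1.40, -0.82 and 0.94, and IgG 0.96. At 58898640-58898692 RBFOX2 had -0.48 and -0.77, SLBP 0.00, 0.71, 0.14 and 1.19, and IgG 0.55. At 58899504-58899555 RBFOX2 had -0.82 and -0.96, SLBP 0.77, 0.24, -0.18 and 0.65, and IgG -0.20; the fifth place, 58899558-58899560, is 3 nt long and lies beside it. At the places named in window 3, both RBFOX2 libraries were below input and below IgG.

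The highest SLBP peaks of the windows fell short of the p limit and lay at different places in each library. Replicate 1 had its highest at 59084501-59084566 on the minus strand (log2 fold 2.98, −log10 p 3.23) and replicate 2 at 58720930-58720967 on the plus strand (3.04, 1.38). Replicate 3 had its highest at 52709524-52709573 on the plus strand (2.98, 1.45) and replicate 4 at 58365587-58365630 on the plus strand (3.58, 1.80). In replicate 1, 3 window peaks with lower folds passed the p limit. They lay at 59056148-59056209 on the plus strand (2.76, 5.88) and, side by side on the minus strand, at 59069857-59069923 (2.76, 5.88) and 59069776-59069856 (2.66, 6.75). No window place was enriched in any SLBP library. The SLBP libraries at 40 U and at 5 U of RNase I differed by -0.24 percentage points in the share of chromosome 19 peaks and by -0.12 in the log2 difference of windows and rest. Exact permutation p-values ranged from 0.333, the smallest possible for 2 against 2, to 1. Replicate number changes together with the RNase I amount in these 4 libraries.

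The shares of RBFOX2 peaks shared between the replicates were lower in the windows. Of the replicate 1 window peaks, 242 of 626 (38.7%) touched a replicate 2 peak on the same strand by at least 1 nt, against 62.7% outside. Of the replicate 2 window peaks, 239 of 562 (42.5%) touched a replicate 1 peak, against 49.1%. Among enriched peaks outside the windows, 73.1% of replicate 1 peaks lay on an enriched replicate 2 peak and 53.6% the other way. In the windows this held for 1 of the 4 and 1 of the 9 enriched peaks. At the 217 window positions paired between the replicates, the folds had r = 0.65 and rho = 0.64, and at 2811 pairs outside r = 0.83 and rho = 0.82; these correlations are across peaks of 2 libraries and are a description. In the windows 3 pairs (1.38%) had a log2 fold of at least 3 in both replicates, against 426 (15.2%) outside. Of the RBFOX2 peaks, 7.99% and 7.65% touched an IgG peak inside, against 17.7% and 11.7% outside. Of the IgG peaks, 33.8% and 30.8% touched an RBFOX2 peak of replicate 1 and 2 inside, against 39.8% and 35.6% outside. The IgG list was itself sparser in the windows, and these differences were not tested.

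**Figure D3:**
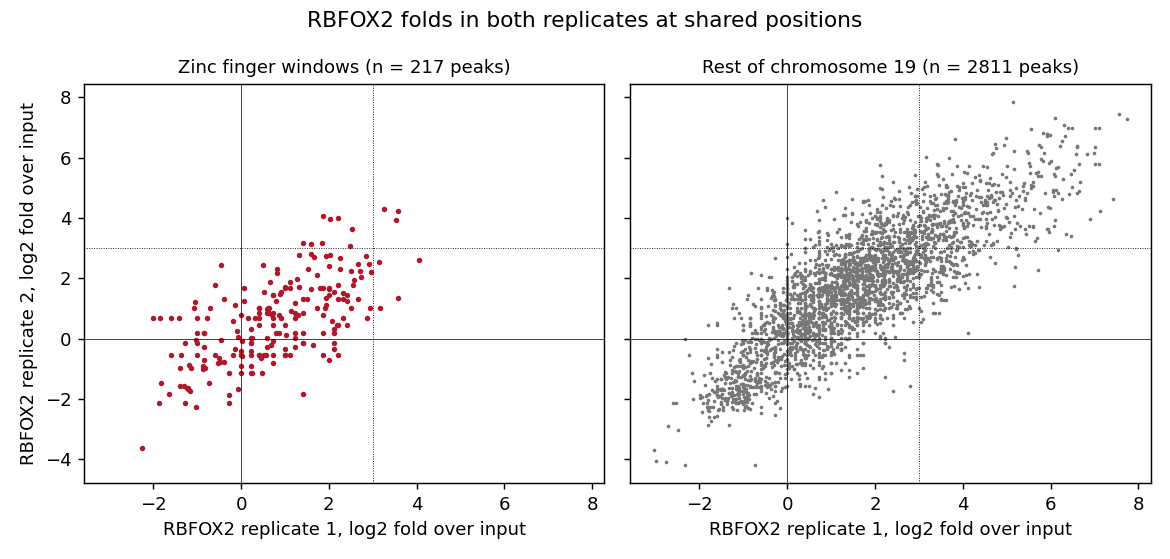
Log2 fold over input in RBFOX2 replicate 1 against replicate 2 at positions with a peak in both, 217 in the windows (left) and 2811 on the rest of chromosome 19 (right); dotted lines mark a log2 fold of 3. In the windows 3 pairs lie past both lines, and outside 426 do.

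The 3 windows were filled unevenly. Window 1, the largest with 4.8 Mb, held 261 peaks over the 7 lists and had peaks in 24 of its 48 bins of 100 kb. Window 2 (1.7 Mb) held 256 in 16 of 17 bins, and window 3 (2.1 Mb) held 1023 in 16 of 21. RBFOX2 replicate 1 had 119, 121 and 386 peaks in windows 1, 2 and 3, and replicate 2 had 100, 97 and 365. Their enriched peaks numbered 1, 1 and 2 in replicate 1 and 1, 1 and 7 in replicate 2. The median log2 folds of replicate 1 were 0.00, 0.41 and 0.41, and those of replicate 2 were -0.14, 0.45 and -0.14. Each window thus lay below the outside medians of 0.87 and 1.14 in both replicates.

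The fullest bin of window 1 was 21500001-21600000 with 45 peaks, of which RBFOX2 replicates 1 and 2 had 29 and 13, IgG 3 and SLBP none. That of window 2 was 52700001-52800000 with 31 peaks. That of window 3 was its last, 59000001-59100000, with 190 peaks: 48 and 59 from RBFOX2, 18, 15, 15 and 12 from SLBP and 23 from IgG. The last 300 kb of window 3, from 58800001, held 19.5% and 30.96% of the RBFOX2 window peaks, 56.5%, 48.5%, 59.5% and 47.6% of the SLBP ones and 33.8% of the IgG ones. Without it, 3 of 504 (0.595%) and 2 of 388 (0.515%) RBFOX2 window peaks were enriched, so that the few enriched peaks of replicate 2 came mostly from there. The median log2 fold of the remaining window peaks was 0.41 and 0.03 for RBFOX2, 1.61, 1.54, 1.24 and 2.17 for SLBP and 1.60 for IgG. Against the outside medians, SLBP replicates 2, 3 and 4 and IgG were thus higher in the remaining windows, and both RBFOX2 libraries lower. RBFOX2 minus SLBP for the log2 difference was -1.20 there (exact permutation p = 0.133), against -0.76 with the whole windows.

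**Figure D4:**
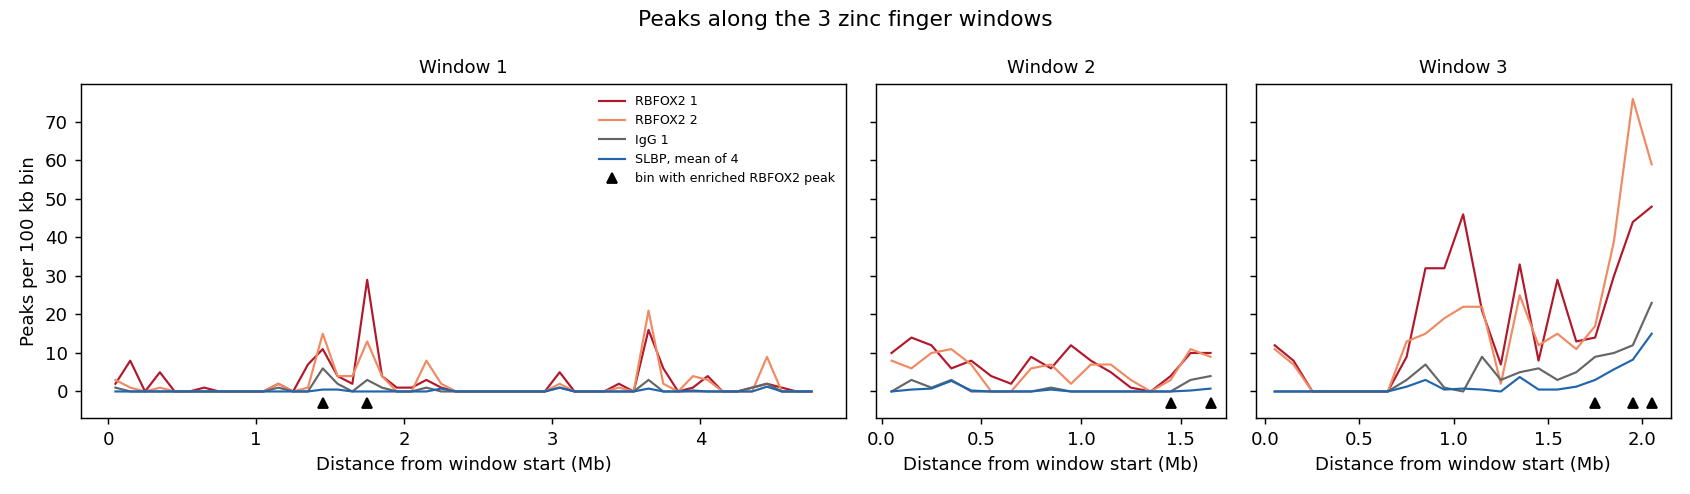
Peaks per 100 kb bin along windows 1, 2 and 3, by distance from the window's start, for the RBFOX2 libraries, IgG and the mean of the 4 SLBP libraries; triangles mark bins with an enriched RBFOX2 peak. Peak numbers are highest at the end of window 3, where the last bin holds 190 peaks over the 7 lists.

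Just outside the windows, the RBFOX2 medians and the replicate 2 enriched share were near those of the rest, and the replicate 1 enriched share lay between windows and rest. Within 0.5 Mb of a window edge, 9 of 173 replicate 1 peaks (5.20%, exact 95% interval 2.41 to 9.65) and 25 of 241 replicate 2 peaks (10.4%, 6.83 to 14.9) were enriched. Between 2 and 4 Mb away the shares were 11.9% and 12.9%. Median log2 folds within 0.5 Mb were 0.83 and 1.19.

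The rest of chromosome 19 was itself uneven, and low enriched shares of RBFOX2 peaks were not found in the windows alone. Of the 1 Mb stretches outside with at least 50 peaks, 39 in replicate 1 and 40 in replicate 2, the enriched share ran from 0% to 32.5% in replicate 1, with a median of 6.31%. In replicate 2 it ran from 0% to 36.6%, with a median of 10.9%. A share below that of the windows was found in 2 and 3 of them. None of these held an enriched peak, among 69 and 96 peaks in replicate 1 and 82, 105 and 110 in replicate 2. The windows pool 626 and 562 peaks, so a single stretch reaches 0% more easily by counting. The median log2 fold was below the windows' value in 5 stretches of replicate 1 and in none of replicate 2. Enriched shares as low as those of the windows thus also occurred elsewhere on the chromosome in both replicates. Medians below that of all window peaks occurred in replicate 1 only, but in replicate 2 the gap was small. There the lowest stretch had 0.02 and the window peaks -0.02. By single window, replicate 2 had -0.14 in windows 1 and 3, below every stretch. Its window 2 had 0.45, and stretches starting at 6, 9, 13, 36 and 37 Mb were lower, with 0.37, 0.02, 0.32, 0.19 and 0.19. Those starting at 44 and 45 Mb had the same value as window 2.

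**Figure D5:**
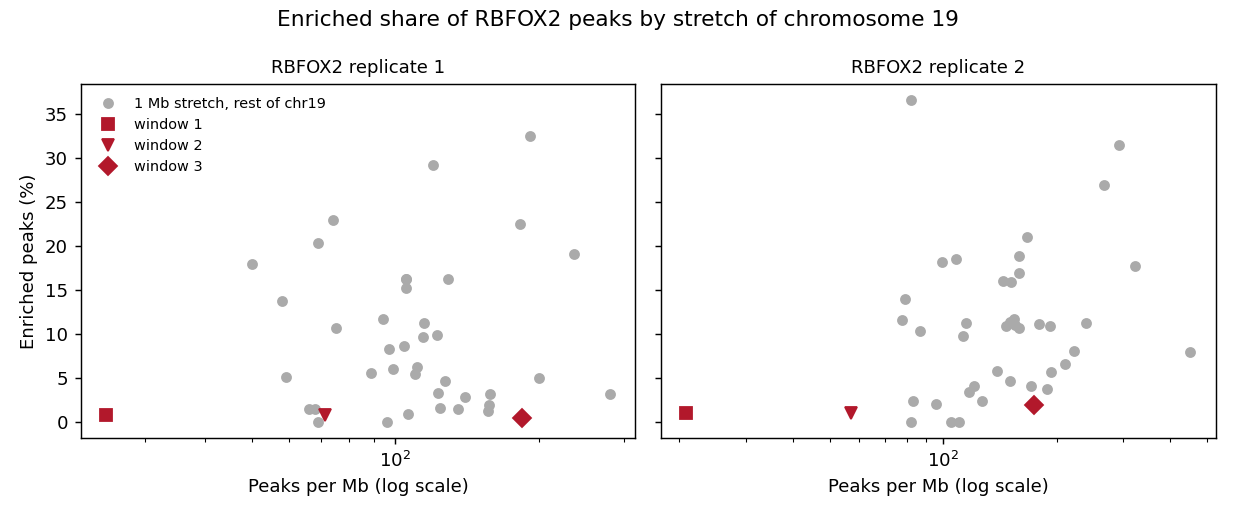
Percent of RBFOX2 peaks that were enriched against peaks per Mb (log axis), for each 1 Mb stretch of the rest of chromosome 19 with at least 50 peaks (grey) and for windows 1, 2 and 3 (red), in each replicate. The windows lie at the foot of both plots, together with a few of the 39 and 40 grey stretches.

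Peak widths differed little. The median width was 35 and 36 nt for RBFOX2 in the windows and 36 and 37 nt outside. SLBP had 31, 33.5, 36.5 and 37 nt inside and 29, 31, 33 and 35 nt outside, and IgG 34 and 31. RBFOX2 window peaks were thus 1 nt narrower in both libraries, and the SLBP and IgG ones 2 to 3.5 nt wider. RBFOX2 minus SLBP was -3.5 nt (exact permutation p = 0.133, the smallest possible), and the mean over 7 libraries was 1.57 nt (exact sign-flip permutation p = 0.0938, 0.234 adjusted over 5 measures). Among peaks of at least 20 nt that mean was -0.07 nt. RBFOX2 minus SLBP shrank there to -1.375 nt (exact permutation p = 0.4), with -2 and 0 nt in RBFOX2 replicates 1 and 2. The widest RBFOX2 window peaks were 141 and 209 nt.

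More window peaks lay on the plus strand in every library, a measure added after the data had been seen. RBFOX2 had 60.4% and 59.96% on the plus strand inside and 52.8% and 54.7% outside. SLBP had 75.4%, 65.2%, 73.8% and 71.4% inside and 57.4%, 56.5%, 57.9% and 57.9% outside, and IgG 69.2% and 56.6%. The difference was positive in 7 of 7 libraries with a mean of 11.6 percentage points (exact sign-flip permutation p = 0.0156, the smallest possible, and 0.0781 adjusted over 5 measures). It did not pass after adjustment. In RBFOX2 the share was highest in window 3, with 67.9% and 66.6%. Window 1 had 56.3% and 45.0%, and window 2 had 40.5% and 50.5%. In window 1 alone the mean over the 7 libraries was -6.50 points.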

How the data were processed

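Peak lists of 7 eCLIP libraries (2 RBFOX2, 4 SLBP, 1 IgG) of 24 samples were used. The 7 inputs entered only through the authors' folds, and the RBFOX2 RNase I series was not analysed here. Groups and RNase I amounts came from the labels. The authors' deposited lists give each peak's strand, its log2 fold over the library's own input and a −log10 p-value. Columns had no header, so units were read from the values. The −log10 p is 0 wherever the log2 fold is below 0. Per the submitters' processing notes, reads were handled with SAMtools, Picard, GATK, STAR and cutadapt on hg19. Neither the peak caller nor the treatment of reads that map to several related genes was given in the sources used here, so values at zinc finger paralogs are uncertain. Read depth is unknown.

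Python 3.11.15, pandas 2.3.3, numpy 2.4.6, scipy 1.17.1 and matplotlib 3.10.9 were used. Tests were two-sided exact permutation tests over libraries, adjusted by Benjamini-Hochberg within a family. The sign-flip test was tried on simulated lists with a known shift. The test between groups was only compared with that of scipy on a small example. Lists of unequal length were compared by shares. Positions are 1-based. The windows, measures and lists were chosen with earlier results of these data known. Places named are RBFOX2 regions enriched in both replicates, SLBP places enriched in at least 2 libraries, all enriched IgG peaks, each library's highest enriched window peak, the fullest 100 kb bin of each window and the 5 places of all 7 lists with the highest median fold. The other enriched RBFOX2 peaks and the highest SLBP peaks were added after their values were seen. Alternatives changed the limits, window edges, background, peak merging, single windows, single libraries and a replicate block.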

Additional observations from a re-analysis of the deposited data

Results flagged for a closer look

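The share of window peaks with a log2 fold of at least 3 was 14.3% in SLBP replicate 4 and between 0% and 1.52% in the other 3 SLBP libraries, so replicate 4 stood far from its group. The same share in replicate 4 was 10.2% on the rest of chromosome 19 and 15.6% on the other chromosomes, so the value is near that list's usual level. Its list is the shortest, with 42 window peaks, and none of those peaks passed the p limit. Of 17 groups of values looked at in this way, chance would single out about 1 in 20.

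The width difference between windows and rest had opposite signs by antibody: -1 nt in both RBFOX2 libraries and 2 to 3.5 nt in the SLBP libraries. The exact permutation test of that difference gave p = 0.133, the smallest it can give. The RBFOX2 sign was not stable. It was 0 and 1 nt for window 3 alone, and 0 nt in both libraries with all other chromosomes as background. With that background RBFOX2 minus SLBP shrank to -0.5 nt (exact permutation p = 0.667).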

How the results depend on the processing

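In both RBFOX2 libraries the enriched percent was lower in the windows than outside under every alternative run. RBFOX2 minus SLBP kept its sign for the median log2 fold and the below-input percent under every alternative run; for the enriched percent SLBP is 0 on chromosome 19 at the stated limits, so that contrast holds no comparison. The mean over 7 libraries was less stable. The log2 difference turned to 0.0046 with windows shrunk by 200 kb, 0.0064 for window 2 alone and 0.0775 with window 3 ended 300 kb earlier, an alternative added after seeing the data. The below-input difference turned to -4.61 points for window 2 alone and -0.243 with window 3 ended earlier. The enriched difference became -2.79 points (exact sign-flip permutation p = 0.0312) against all other chromosomes. There the SLBP lists had 1.34%, 1.38%, 1.85% and 2.51% enriched, against 0% in the windows. They also had 0% on the rest of chromosome 19, so their negative differences are not particular to the windows. IgG went the other way, with 0.752% in the windows and 0.178% on the other chromosomes. Width became 2.43 nt for window 3 alone (exact permutation p = 0.0312) and -0.0714 nt for peaks of at least 20 nt, and with touching peaks merged SLBP at 40 U minus 5 U became 1.25 nt. The plus-strand difference turned to -6.50 points for window 1 alone, and there RBFOX2 minus SLBP turned to 8.50. RBFOX2 regions enriched in both replicates numbered 3 with −log10 p at least 3, 0 with log2 fold at least 4 and −log10 p at least 8, 0 with windows shrunk and 4 with windows widened. Leaving out 1 library at a time changed no direction or call, but the mean log2 difference ran from -0.08 without RBFOX2 replicate 2 to -0.30 without IgG, and the below-input one was 2.75 points without RBFOX2 replicate 2. The replicate block over numbers 1 and 2 gave 5.52 points for the share and -0.70 for log2 (p = 0.5, the smallest an exact permutation test of 2 pairs can give); same-numbered libraries did not deviate together (r = -0.084). Limiting the contrast to peaks with −log10 p at least 5 was not run, because 3 SLBP libraries had none in the windows. The cause of these changes was not tested.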
